A study of Mus musculus with 56 samples.

Results

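Genes of the vessel wall and of leukocyte adhesion were followed in the lungs of mice with oleic acid (OA) injury: Ace, Pecam1, Cd34, Icam1, Glycam1 and Cd44. They were represented by the 9 cDNA clones that carry these 6 symbols, of 7625 clones with a gene name and 9984 spots on the MUSV29K nylon microarray. Ace, Icam1 and Glycam1 have 1 clone each. Pecam1 has the spots 7881 and 8442, Cd34 the spots 8636 and 9084, and Cd44 the spots 4263 and 7602, and each clone was read on its own.

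All mice were wild-type C57Bl/6J females aged 7 weeks, anesthetized and injected in the tail vein. The OA mice, which received 20 µl of oleic acid, were killed after 1, 1.5, 3, 4, 18 or 24 hours, and these groups held 4, 6, 7, 4, 3 and 3 mice. The control mice received physiological serum and numbered 2, 1, 2, 2 and 1 at 1, 1.5, 3, 18 and 24 hours, with none at 4 hours. RNA came from a whole lung of each mouse, so that fewer cells of a type and less RNA per cell cannot be told apart.

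The inner surface of lung vessels is a single layer of endothelial cells, which holds plasma back from the air spaces and lets leukocytes pass when tissue is injured. A leukocyte first rolls on selectins and their mucin ligands, then adheres through integrins to immunoglobulin-like receptors such as ICAM-1, and finally crosses the junctions where PECAM-1 sits. The capillaries of the lung are also the main site where angiotensin-converting enzyme acts on circulating angiotensin, and release of this enzyme is a known sign of endothelial injury.

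The upstream sequences of the genes whose OA and serum levels are set side by side below are shown first, since Icam1 is a textbook target of NF-kB and Stat factors while Ace and Cd34 mark endothelium. The 250 bases before the annotated start site are given 5′ to 3′ on the coding strand, from RefSeq on the build GRCm38.p6. They lie at chr9:21015690-21015939 for Icam1, chr11:105967698-105967947 for Ace and chr1:194938571-194938820 for Cd34, each on the plus strand. Capitals mark matches, on either strand, to GGAANNTCC (the NF-kB core), TTCNNNGAA (the Stat core), TATAAA and GGGCGG (the GC box).
Icam1: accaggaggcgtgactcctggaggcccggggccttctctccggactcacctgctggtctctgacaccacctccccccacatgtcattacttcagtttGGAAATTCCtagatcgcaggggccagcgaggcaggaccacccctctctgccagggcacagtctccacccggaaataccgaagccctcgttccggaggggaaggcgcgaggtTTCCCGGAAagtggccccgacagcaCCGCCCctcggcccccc
Ace: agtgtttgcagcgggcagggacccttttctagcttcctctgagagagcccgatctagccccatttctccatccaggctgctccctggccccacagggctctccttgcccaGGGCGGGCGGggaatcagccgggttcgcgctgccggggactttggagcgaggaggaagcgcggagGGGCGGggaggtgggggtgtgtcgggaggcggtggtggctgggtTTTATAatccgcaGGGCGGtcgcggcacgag
Cd34: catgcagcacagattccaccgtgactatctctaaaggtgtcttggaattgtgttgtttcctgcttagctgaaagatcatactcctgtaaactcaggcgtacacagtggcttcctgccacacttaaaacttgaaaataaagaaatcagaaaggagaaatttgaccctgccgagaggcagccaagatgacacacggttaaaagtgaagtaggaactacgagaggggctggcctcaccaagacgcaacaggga

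Icam1 held 1 match to GGAANNTCC, from base -153 to -145 before the start site, and 1 to TTCNNNGAA, from -42 to -34. It also held GGGCGG on the other strand from -17 to -12. Ace held 4 matches to GGGCGG, of which a pair overlap, and TATAAA on the other strand from -31 to -26. Cd34 held none of these letters in this window. Of 32851 promoter windows of the same length, 3.59% held GGAANNTCC, 7.02% TTCNNNGAA, 12.4% TATAAA and 32.7% GGGCGG. RefSeq windows were at hand for 5 of the 6 genes, and 4 genes were scanned. Glycam1, scanned but not printed, held 1 match to TTCNNNGAA, from -145 to -137.

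Signal over background differed between the clones and sets what each can show. The reference was the 95th percentile of the 2159 spots without a gene name, most of them empty. Pecam1 (spot 8442) and Icam1 each exceeded it on 49 of 51 OA microarrays, and Ace on 34. Ace and Pecam1 (spot 8442) exceeded it on all 9 serum microarrays and Icam1 on 7. Cd34 (spot 9084) was above it on 8 OA and on 9 serum microarrays, and Cd34 (spot 8636) on 12 and 5. Cd44 (spot 4263) was above it on 7 OA microarrays and on no serum microarray, and Cd44 (spot 7602) on 5 and 0. Glycam1 and Pecam1 (spot 7881) were not above it on any of the 60 microarrays, so their values stand at the level of the empty spots. The deposited quality mark of 1 was carried by Icam1 on 51 OA microarrays, but by Pecam1 (spot 7881) on 1, Glycam1 on 5 and Cd44 (spot 7602) on 10.

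The lung origin of the RNA showed in bright clones of alveolar genes, with Sftpd, a surfactant protein, at a mean log2 signal of 13.44 in OA mice and Slc34a2, a phosphate carrier of type II cells, at 12.59. Of the endothelial clones, Cdh5, the cadherin of endothelial junctions, reached 12.37 and Cldn5, a tight junction protein, 12.06. These 4 values describe the tissue and are not ranked against each other.

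Over the OA time course, the deposited log2 levels of Ace, the peptidase that makes angiotensin II, moved little. At 1 hour the 4 mice had 8.70, 8.92, 9.07 and 9.52. At 1.5 hours the 6 mice ran from 8.97 through a median of 9.21 to 9.54, and at 3 hours the 7 mice from 8.92 through 9.33 to 9.47. The groups overlapped. The 4 hours mice had 8.89, 9.03, 9.29 and 9.54. The later mice had 9.02, 9.28 and 9.49 (18 hours) and 9.40, 9.43 and 9.73 (24 hours). The 24 hours mice lay at the upper end, with a mean of 9.52 ± 0.18 (SD, n = 3) against 9.05 ± 0.35 (SD, n = 4) at 1 hour. Yet limma's F test over the 6 time points gave Ace an adjusted p of 0.567.

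Icam1, the endothelial receptor of leukocyte integrins, was highest at 4 hours and lowest at 24 hours. Its mice had 9.44, 9.50, 9.67 and 10.02 at 1 hour, and 9.69, 9.76, 10.01 and 10.23 at 4 hours. After 18 hours they had 9.53, 9.68 and 9.74, and after 24 hours 9.40, 9.51 and 9.58. For the 1.5 hours mice the range was 9.26 to 10.10 around a median of 9.97, and for the 3 hours mice 9.29 to 10.15 around 9.92. The 3 mice of 24 hours thus lay below all 4 mice of 4 hours, while most other groups overlapped. The 3 and 4 hours mice stood 0.20 (SE 0.11) above the mean of the others on the log2 scale, with an adjusted p of 0.437 in limma's contrast.

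**Figure D1:**
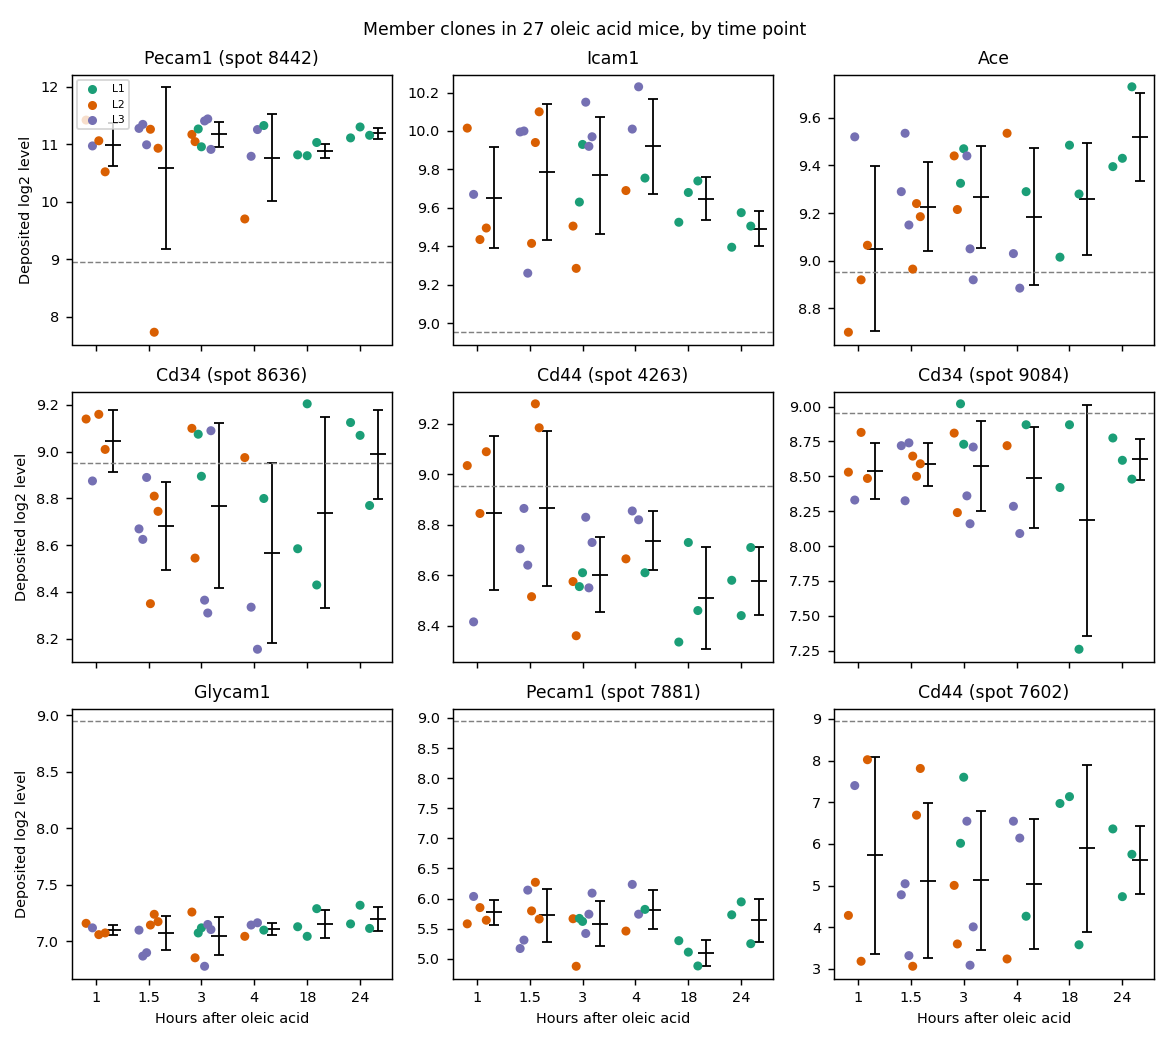
Deposited log2 level (vertical axis) of the 9 member clones against hours after oleic acid (horizontal axis, evenly spaced groups). Each point is 1 of 27 mice, coloured by the L number in its name, bars give the mean ± SD, and the dashed line is the 95th percentile of the unnamed spots at 8.95. Vertical scales differ between panels, and Glycam1, Pecam1 (spot 7881) and Cd44 (spot 7602) stay under the line in every mouse.

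Cd34, a sialomucin of capillary endothelium and of blood progenitors, was measured by both of its clones near the 95th percentile of the unnamed spots. Their OA means were 8.78 (spot 8636) and 8.52 (spot 9084), against 8.95 for that percentile and 6.21 for the median of the unnamed spots. Cd34 (spot 8636) had its highest mean at 1 hour, 9.05 ± 0.13 (SD, n = 4), and its lowest at 4 hours, 8.57 ± 0.38 (SD, n = 4). Cd34 (spot 9084) ran from 8.18 ± 0.83 (SD, n = 3) at 18 hours to 8.62 ± 0.15 (SD, n = 3) at 24 hours. The 18 hours mean of this clone rests on mouse P12L1 at 7.26, beside 8.42 and 8.87 in the other mice. The clones thus placed the time points in different orders, and neither order was separated by the test, with adjusted p of 0.500 and 0.795. Without P12L1 the latter was 0.99.

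Pecam1 (spot 8442), the clone of the junctional receptor above background, lay between 10.52 and 11.44 in 25 of 27 OA mice. Mouse P7L2 at 1.5 hours had 7.73, and mouse P11L2 at 4 hours 9.70. The microarrays of P11L2 gave 8.05 and 11.35 for this spot. In P7L2, which was hybridized on a single microarray, 36 clones lay more than 2 log2 units under every other OA mouse, where the other mice had a median of 0 such clones and at most 4. These microarrays set the spread at 1.5 and 4 hours, and the F test gave an adjusted p of 0.865, or 0.658 without P7L2 and 0.845 without P11L2.

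Cd44, the receptor of hyaluronan on leukocytes and many other cells, was read by a steadier clone and an erratic one. Cd44 (spot 4263) went from means of 8.85 ± 0.31 (SD, n = 4) after 1 hour and 8.87 ± 0.31 (SD, n = 6) after 1.5 hours to 8.51 ± 0.20 (SD, n = 3) after 18 and 8.58 ± 0.14 (SD, n = 3) after 24 hours, with an adjusted p of 0.432. Cd44 (spot 7602) ranged from 3.07 to 8.02 between mice. Its values on both microarrays of a mouse had a standard deviation of 2.41, and mouse P12L3 gave 3.46 on one and 9.63 on the other. For Ace the same spread between microarrays of a mouse was 0.19, for Icam1 0.36 and for Cd44 (spot 4263) 0.31, each over 23 mice. The means per mouse within a time point had standard deviations of 0.24, 0.28 and 0.22 in these clones. For Icam1 and Cd44 (spot 4263) the spread between microarrays was thus the larger.

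**Figure D2:**
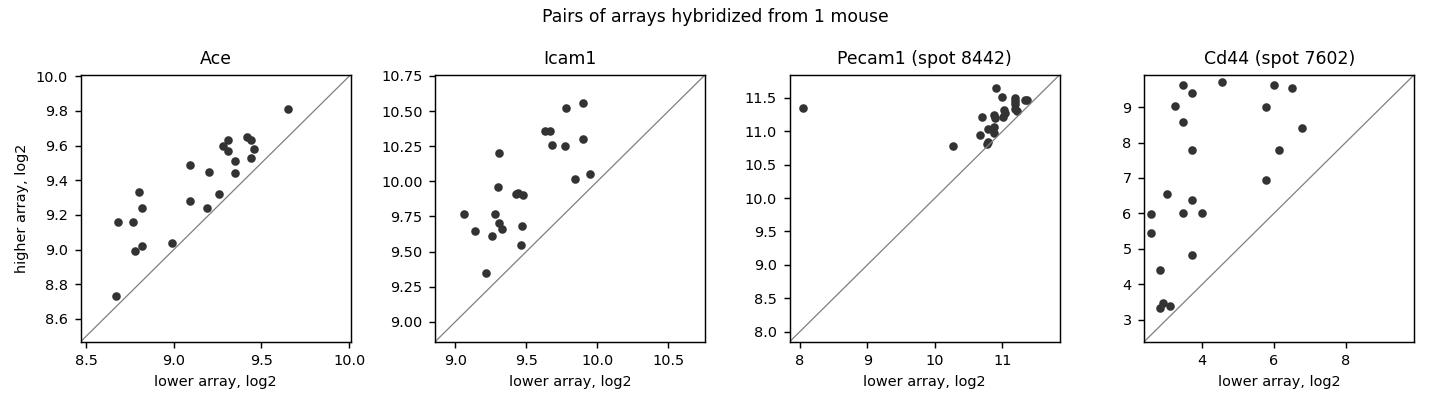
Log2 level on the higher (vertical axis) against the lower (horizontal axis) of both microarrays of a mouse, for 23 OA mice and 4 clones, with the line of equality. The gap between both microarrays reaches 0.53 log2 units for Ace and 0.89 for Icam1. Pecam1 (spot 8442) has 1 mouse at 8.05 and 11.35, and Cd44 (spot 7602) scatters over up to 6.17 log2 units.

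None of the 9 member clones passed the F test over time at an adjusted p of 0.05, and none had an unadjusted p under 0.05. Of all 7625 clones, 153 (2.01%) passed and 1208 had an unadjusted p under 0.05. Of the 135 comparisons of member clones between a pair of time points, 0 passed at an adjusted p of 0.05. Of all clones, 0% passed between 1 and 1.5 hours and between 3 and 4 hours, and 0.0262% between 18 and 24 hours. Against 1 hour the shares were 0.393% (3 hours), 0.538% (4 hours), 0.0393% (18 hours) and 0.525% (24 hours), and against 1.5 hours 0.367%, 0.42%, 0.17% and 0.498%. They were 0.695% and 1.78% for 18 and 24 hours against 3 hours, and 1.04% and 0.59% for the same against 4 hours. Unadjusted p-values under 0.05 were found in 9 of these 135. The contrast of 3 and 4 hours with the other times called 0 member clones, against 3.02% of all clones. So the order of the time points in each member is a description, and no neighbours in it differed beyond their spread. The mouse names carry an L number (L1, L2 or L3) whose meaning the labels do not give. Mice of 1 and 1.5 hours were all L2 or L3 and those of 18 and 24 hours all L1, so between these times this number and time cannot be told apart.

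Against serum, Ace and both clones of Cd34 were lower in OA mice, the second Cd34 clone only under some of the settings tried. These values come from the microarray files, quantile-normalized over all 60 microarrays, and are means per mouse. Ace ran from 8.63 through a median of 9.15 to 9.62 in the 27 OA mice, and from 9.62 through 9.99 to 10.38 in the 8 serum mice. All OA mice but 1 lay below the lowest serum mouse. The OA mice were lower by 1.80-fold, a log2 difference of -0.85 (SE 0.10) averaged over 5 time points, with an adjusted p of 3.2e-08 in limma.

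Cd34 (spot 9084) lay between 7.17 and 8.91 in OA mice, with a median of 8.51, and between 9.68 and 10.09 in serum mice, with a median of 9.89. No OA mouse reached the serum mice. The log2 difference was -1.51 (SE 0.14, adjusted p = 4.5e-10 in limma). No fold is given, since the OA mean of 8.43 lay under the 95th percentile of the unnamed spots, 8.86, which the serum mean of 9.91 exceeded. Every OA mouse was below every serum mouse in 5.08% of all clones, and above in 7.62%. Within the OA mice this clone rose with the brightness of the microarrays (Pearson r = 0.64 and Spearman rho = 0.46 over 27 mice, a description). Mouse P12L1, the lowest in this clone, also had the dimmest OA microarray, at a median log2 intensity of 6.75. The serum microarrays were dimmer than the OA ones, with median log2 intensities of 7.62 and 8.32 before normalization. The part of brightness in the difference was not tested.

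The second clone of Cd34 gave a smaller difference. Cd34 (spot 8636) ran from 8.07 through 8.72 to 9.09 in OA mice and from 8.95 through 9.01 to 9.44 in serum mice. Of the OA mice, 19 lay below the lowest serum mouse and 8 within the serum range. The difference was -0.32 (SE 0.12, adjusted p = 0.020 in limma). It was lost without the second serum mouse of 3 hours (-0.27, adjusted p = 0.056) and with the fitted in place of the image signal (-0.10, adjusted p = 0.549). It was near 0 with serum taken from the calculated diameter (-0.01, adjusted p = 0.945) and with the deposited serum columns (-0.001, adjusted p = 0.996).

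**Figure D3:**
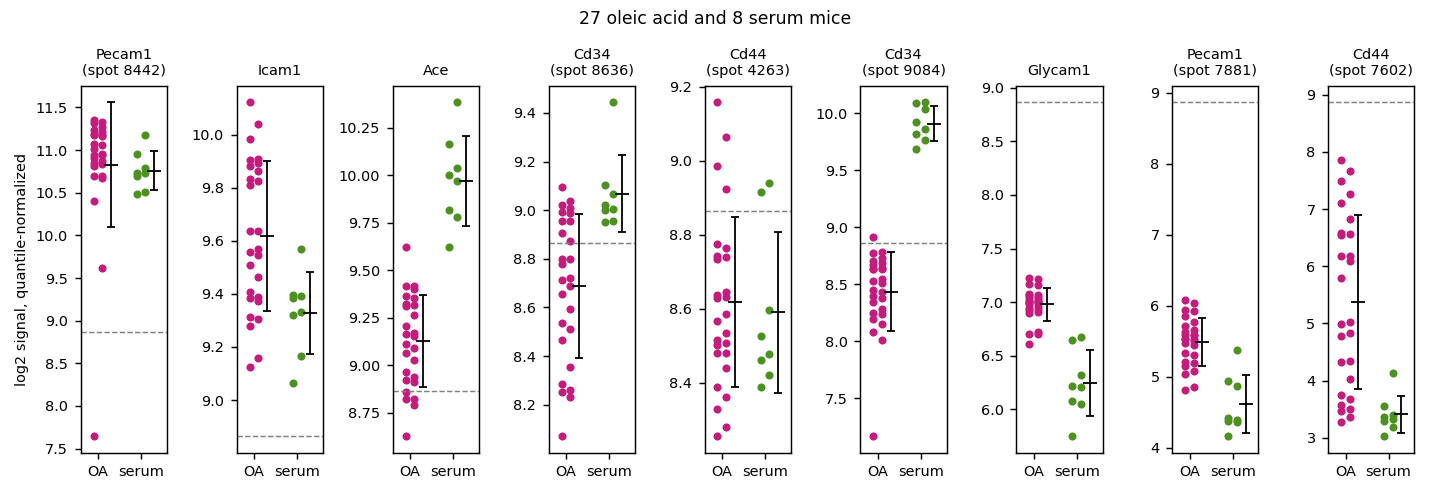
Quantile-normalized log2 signal (vertical axis) of the 9 member clones in 27 OA and 8 serum mice, 1 point per mouse, with mean ± SD and the 95th percentile of the unnamed spots (dashed, 8.86). Cd34 (spot 9084) is the clone with every OA mouse below every serum mouse, and Ace has 26 of 27 below. Vertical scales differ between panels.

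At 1.5 and 24 hours the serum group is 1 mouse, and the tests there take its spread to be that of the other groups. By time point, Cd34 (spot 9084) passed at all 5, with differences of -1.48, -1.42, -1.47, -1.68 and -1.50 in order of time. Ace passed at 4 of them, with -0.88, -0.74, -0.93 and -0.98 after 1, 3, 18 and 24 hours, and had -0.71 after 1.5 hours (adjusted p = 0.055 in limma). Cd34 (spot 9084) and Ace both passed at each of the 3 times with 2 serum mice. The shares of all clones that passed at these times were 30%, 14.1%, 40.1%, 29.2% and 22.3%. Whether the difference changed with time was tested by an F test over the 5 differences, which called 0 member clones and 0.105% of all clones. With the deposited serum columns in place of the serum microarrays that test did call Ace (adjusted p = 0.0091) and 4904 clones in all.

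**Figure D4:**
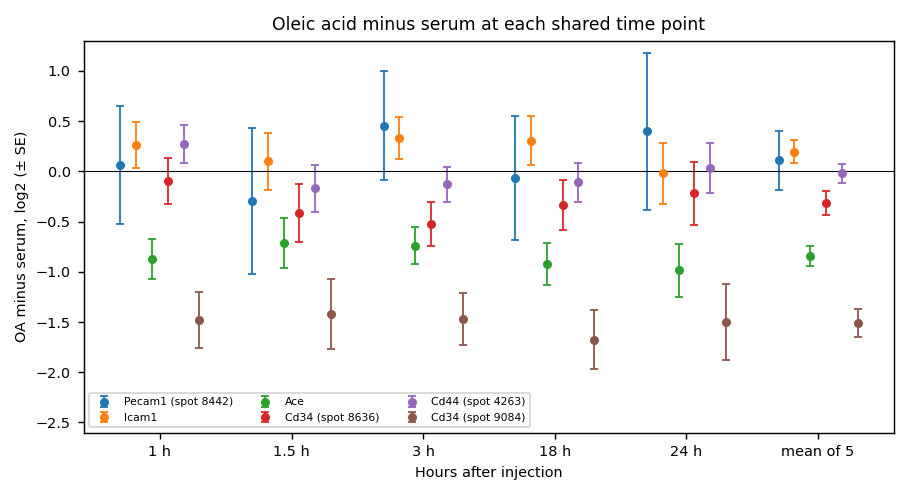
OA minus serum on the log2 scale (vertical axis, ± SE of the limma fit) at each shared time point and averaged over the 5 (horizontal axis), for the 6 member clones that rose above the unnamed spots most often. Cd34 (spot 9084) stays between -1.68 and -1.42 and Ace between -0.98 and -0.71, while Icam1, Pecam1 (spot 8442) and Cd44 (spot 4263) lie around 0.

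Icam1, Pecam1 and Cd44 showed no such separation in their brighter clones. Icam1 had 9.12, 9.57 and 10.12 as lowest, median and highest OA mouse and 9.06, 9.36 and 9.57 in serum. Of the OA mice, 13 exceeded every serum mouse, and the difference was 0.19 (SE 0.11, adjusted p = 0.142 in limma). This value turned on the processing: it was 0.33 (adjusted p = 0.0299) with the fitted signal, 0.52 (adjusted p = 0.0013) with the deposited serum columns and 0.004 (adjusted p = 0.979) with each microarray centred on its median. Pecam1 (spot 8442) differed by 0.11 (SE 0.29, adjusted p = 0.759), or by 0.23 (SE 0.15, adjusted p = 0.184) without mouse P7L2, and Cd44 (spot 4263) by -0.02 (SE 0.09, adjusted p = 0.867).

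The other clones were called, but at levels of the empty spots. Glycam1, a mucin made in lymph node vessels, had 6.61 to 7.23 in OA and 5.75 to 6.68 in serum mice. Pecam1 (spot 7881) had 4.81 to 6.08 and 4.16 to 5.37, and Cd44 (spot 7602) 3.28 to 7.86 and 3.03 to 4.13. Their adjusted p were 7.6e-09, 2.1e-05 and 0.0062, and no fold is given, since both groups lay under the background level. The calls of Pecam1 (spot 7881) and Cd44 (spot 7602) were lost with the fitted signal (0.01 and 0.73, adjusted p = 0.952 and 0.162) and with each microarray centred on its median (0.24 and 1.17, adjusted p = 0.150 and 0.140), and their sign turned with the deposited serum columns.

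In all, 6 of 9 member clones passed OA against serum, 3 higher and 3 lower, where 61.6% of all clones passed, 34.3% higher and 27.3% lower. The members' share is near that of the microarray as a whole. The count was 4 with the fitted signal, where Cd34 (spot 8636), Pecam1 (spot 7881) and Cd44 (spot 7602) were lost and Icam1 was gained, and 4 with each microarray centred on its median, where Pecam1 (spot 7881) and Cd44 (spot 7602) were lost. It was also 4 with serum taken from the calculated diameter, and 5 with the deposited serum columns. The labels give no L number for the serum mice, so treatment cannot be told apart from whatever that number marks. Each microarray's centring on the median moved the share of higher clones among those called from 55.7% to 43.6%, and the deposited serum columns to 64%. The median of all clones was 0.05 above serum, and 0.16 with the deposited serum columns, a shift against which Ace and Cd34 (spot 9084) kept their sign.

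Other genes of the same steps are given by counts, to be read beside 34.3% higher and 27.3% lower over all clones. Of 23 further endothelial clones (20 genes), 8 were higher in OA mice, 5 lower and 10 not called, with a median difference of 0.09, beside 0.05 over all clones. The 5 lower clones, named after their values were seen, were both clones of Eng, the TGF-beta co-receptor of endothelium (-1.73 and -0.96), Plvap, the diaphragm protein of endothelial fenestrae (-1.32), Cldn5 (-0.69) and a clone of Prx under the background level in both groups. Higher were Tek, the angiopoietin receptor, by 1.75 (SE 0.15), and Sox18, an endothelial transcription factor, by 0.90 (SE 0.09). The other higher clones were also named after their values were seen. Edg1 (0.55) and Cdh5 (0.31, adjusted p = 0.033 in limma) had both group means above the background level. Ednrb (0.65) had its serum mean of 8.27 under that level. Cav2, a caveolin, Aqp1 and Ece1 were called higher under the background level in both groups. The serum means of Tek and Sox18 (7.72 and 8.33) and the OA mean of the first Eng clone (8.71) lay under that level too, so the sizes of these differences rest partly on values near those of the unnamed spots. The mean log2 level of the list overlapped, from 8.89 to 9.40 in OA and 8.86 to 9.35 in serum mice.

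For rolling, 13 clones of selectins, mucins and their ligands held 4 higher, 3 lower and 6 uncalled. Cd164, a sialomucin, was higher by 1.74 (SE 0.15) in one clone and by 0.61 (SE 0.16) in the other. Selpl, the P-selectin ligand of leukocytes, was lower, at -0.73 (SE 0.09). The serum mean of the first Cd164 clone (7.96) and the OA mean of Selpl (8.69) lay under the background level. Fut7, which builds selectin ligands, was called higher under the background level in both groups. Selp itself, as dim, did not pass (adjusted p = 0.188).

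For firm adhesion, 17 clones of the immunoglobulin family held 3 higher, 9 lower and 5 uncalled, with a median of -0.33. Icam2, the constitutive relative of Icam1, was lower at -1.23 (SE 0.11), with means of 9.44 in OA and 10.72 in serum mice. F11r, a junctional adhesion molecule, was lower by both clones (-1.45 and -0.62), Bcam, a laminin receptor, at -0.53 (SE 0.08). The OA mean of the first F11r clone (8.59) lay under the background level. Both Vcam1 clones, named after their values were seen, were called lower, but under the background level in both groups. The 16 clones of integrins and their partners, a list not limited to integrins of leukocytes, held 0 higher and 10 lower, with a median of -0.30. Over all clones 34.3% were higher and 27.3% lower. Itgb5 was lower at -0.97. The leukocyte integrins Itgal, Itgam and Itgax were called lower under the background level in both groups, and Itgb7, as dim, was not called. The mean log2 levels of these 16 clones, of which 4 lay above background, did not overlap, at 7.63 to 7.96 in OA and 8.08 to 8.24 in serum mice. Other lists did not overlap either. The immunoglobulin family had 8.62 to 9.0676 in OA and 9.0682 to 9.33 in serum mice. The renin-angiotensin list, with 2 of 6 clones above background, had 8.27 to 8.59 and 7.95 to 8.22. The macrophage and monocyte list is given below.

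Of 15 clones of hyaluronan and Cd44 partners, 5 were higher and 1 lower. Xlkd1, the hyaluronan receptor of lymphatic vessels, was higher by 1.06 (SE 0.14), with its serum mean of 8.13 under the background level. Ank1 was called higher under the background level in both groups. Mmp14, a membrane protease that cleaves Cd44, was lower at -0.67 (SE 0.12), with its OA mean of 8.48 under the background level. Xlkd1 was also the 1 clone of the 7 vessel and adhesion lists that passed over the OA time course (adjusted p = 0.0062), with means in order of time of 9.14, 9.56, 9.83, 10.03, 8.82 and 8.71. In the contrast of 3 and 4 hours with the other times it was higher by 0.88 (adjusted p = 0.00044 in limma). That contrast also called 1 endothelial clone lower, Klf2 at -0.46 (adjusted p = 0.033), and 3 clones of junctions and transmigration lower. Of all clones, 2.01% passed over time and 3.02% in the contrast.

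Around Ace, 6 clones of renin-angiotensin and kinin peptidases held 4 higher and 1 lower. Agtrap, which binds the angiotensin receptor, was higher by 1.35 (SE 0.13) in one clone and had -0.10 (adjusted p = 0.280 in limma) in the other. The serum mean of the first Agtrap clone (8.13) lay under the background level. Mme, or neprilysin, was called higher and Prcp, which cleaves angiotensin II, lower, both under the background level in both groups. Among 53 clones of endothelial junctions and transmigration, 18 were higher and 17 lower. Rock1, a kinase of the actin cytoskeleton, was higher by 1.38 (SE 0.11), and Cdc42, a small GTPase, by 1.41 (SE 0.12). Their serum means (8.20 and 8.35) lay under the background level. Cxcl12, a chemokine, was lower at -1.25 (SE 0.15), with its OA mean of 7.95 under that level.

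Markers of other cell types were read in the same mice. The mean log2 level of 17 macrophage and monocyte clones was 7.81 to 8.14 in OA and 7.55 to 7.77 in serum mice, and of 9 neutrophil clones 8.54 to 9.68 and 8.60 to 8.90. For 26 T cell clones it was 7.01 to 7.48 and 6.77 to 7.14, and for 24 B cell clones 7.32 to 8.11 and 7.18 to 8.01. Red cell (18 clones) and alveolar and airway epithelial clones (6) overlapped, at 12.09 to 12.33 and 10.21 to 10.61 in OA and 11.87 to 12.22 and 9.98 to 10.58 in serum mice, as did 11 fibroblast and smooth muscle clones, at 10.05 to 10.47 and 10.13 to 10.51. The 30 clones of the NF-kB and TNF response held 8 higher and 13 lower, and the 23 of the interferon gamma and Stat response 3 higher and 15 lower. Beside these counts, 34.3% of all clones were higher and 27.3% lower. Above background lay 9 clones of the NF-kB and TNF list and 10 of the interferon gamma and Stat list. The part of cell composition in the levels of Ace and Cd34 was not tested.

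Over the 27 OA mice, the clones were then set against each other in 36 pairs. A single pair passed after Benjamini-Hochberg adjustment, and it joined both clones of Cd34 (Pearson r = 0.66, permutation p = 7e-05, adjusted p = 0.0025; Spearman rho = 0.74, permutation p = 3e-05, adjusted p = 0.0011). Pearson r was 0.60 without P13L3 and P8L3, the 2 mice farthest from the median of spot 8636, which leaves P12L1 in. It was 0.78 after centring on time points, and 0.79, 0.46 and 0.79 within the L1, L2 and L3 mice. Both clones also rose with the brightness of the microarrays (r = 0.35 and rho = 0.39 for spot 8636, r = 0.64 and rho = 0.46 for spot 9084). The part of brightness in this pair was not tested.

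Icam1 and Cd44 (spot 4263) came next, at r = 0.50 (permutation p = 0.0082, adjusted p = 0.147) and rho = 0.52 (permutation p = 0.0061, adjusted p = 0.110). This pair had 0.16, 0.77 and 0.58 within L1, L2 and L3, and did not pass. It had 0.43 without the 2 mice farthest from the median of Cd44 (spot 4263). Pecam1 (spot 8442) and Cd44 (spot 4263) had r = -0.45, but -0.04 without the mice P7L2 and P8L2, so that relation rests on those mice. The clones of Pecam1 had r = -0.29 (permutation p = 0.158) and those of Cd44 r = 0.33 (permutation p = 0.091). Ace went with none of the others, at r from -0.30 to 0.24.

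**Figure D5:**
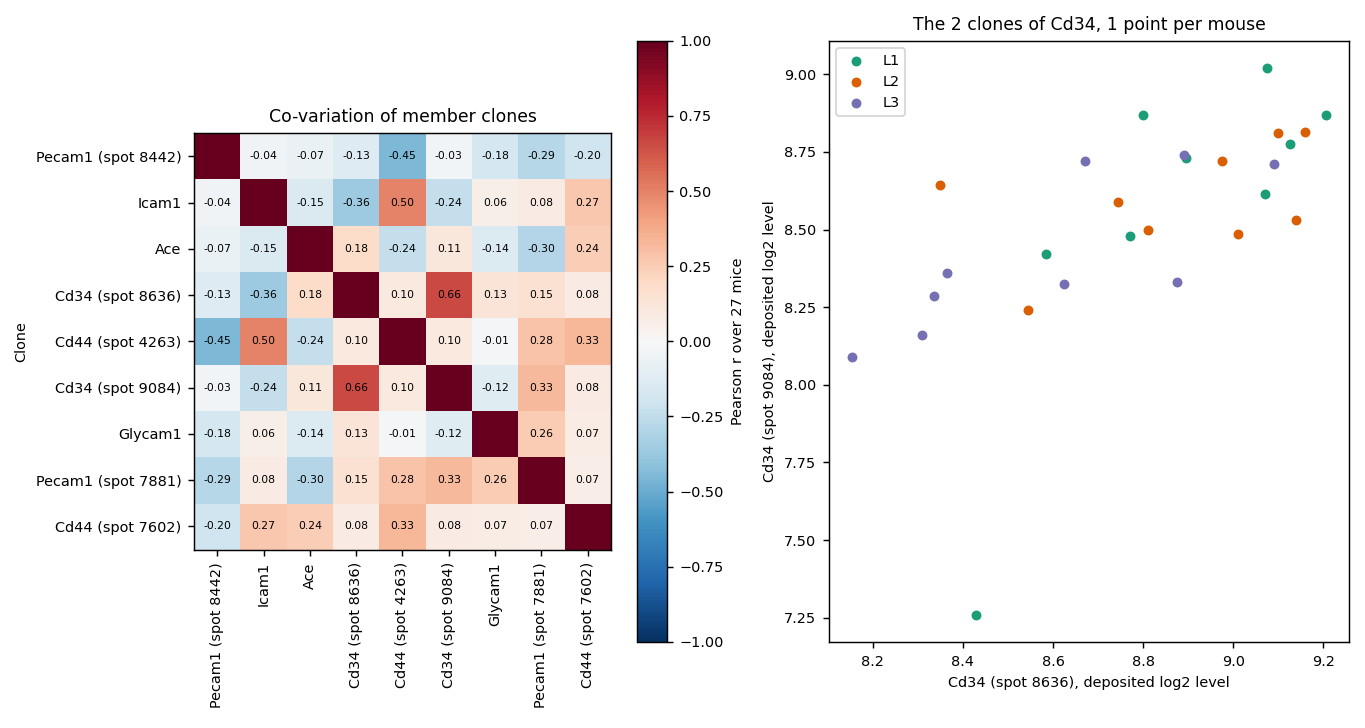
Left, Pearson r over 27 OA mice between the 9 member clones (rows and columns). Right, deposited log2 level of both Cd34 clones, 1 point per mouse coloured by L number, where r is 0.66 and mouse P12L1 lies lowest at 7.26.

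The clones whose levels over the 27 OA mice were most like each member are given as a description. Ace went with Traf7 (r = 0.80) and Eif3s9 (0.78), Icam1 with Rbbp7 (0.80) and Pde8b (0.79), and Cd44 (spot 4263) with Atp5e (0.75) and Dpt (0.75). Cd34 (spot 8636) went with Cpd (0.80) and Twsg1 (0.75), and Cd34 (spot 9084) with Eml4 (0.83) and Sds (0.81). Glycam1 went with Pmpcb (0.71) and Kcnn3 (0.70), and Pecam1 (spot 7881) with Rab1 (0.75) and Zfp275 (0.73). Pecam1 (spot 8442) had the highest values, with Tgm1 (0.97) and Adrm1 (0.96), and in both of these clones too the mice P7L2 and P11L2 were the lowest (8.42 and 11.47 for Tgm1, 7.76 and 9.42 for Adrm1). Cd44 (spot 7602) went with Trim28 (0.93) and Rnf141 (0.90), whose spots 7588 and 7614 stand close to it in the spot list.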

How the data were processed

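Lung RNA labelled with 33P was hybridized to 60 MUSV29K membranes, 51 for OA and 9 for serum mice. Per membrane, the authors deposited spot intensity for 9984 spots (Bzscan2; taken off the image or off a fitted shape). The authors also deposited a quality score of 0 or 1 per spot, made by a rule not given in the sources used here. The authors also deposited a table of log2 values, quantile-normalized by them, with 51 OA columns and 5 serum columns. Its OA columns rank the spots as the constant-diameter image reading does (Spearman 1.00), with a median of 8.21 in each, and its serum columns are closest to the fitted reading with calculated diameter (Spearman 0.864 to 0.993), with medians from 8.00 to 8.21. It is not known which membranes make up each serum column, so OA was compared with serum on the intensities. Whether these intensities include the local background correction of the study's methods is unknown. For microarrays no depth applies, and the number of mice limits the precision.

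Groups came from the labels. Microarrays of 1 mouse were averaged (23 OA mice had 2). The microarray of mouse P7L3 whose labels name 3 and 1.5 hours was taken as 3 hours, and 1 microarray of 1.5 hours whose mouse is unresolved was left out. The labels' mice are separate animals. Image intensities were floored at 1, put on log2 and quantile-normalized over 60 microarrays, control and unnamed spots included, and all 7625 named clones were tested, with no filter. Time points of 27 OA mice were compared on the deposited table without serum subtraction, with limma 3.58.1 in R 4.3.3 (lmFit, eBayes, moderated F and contrasts), and OA with serum in a fit of 11 groups, as the mean of 5 differences. Benjamini-Hochberg adjustment ran over all clones at 0.05. In simulated data on these clones and groups the fits recovered planted changes, but the share recovered by size of change is not given here. The simulation therefore does not show how small a change over time could be found. For OA against serum the simulated spread also lay below the residual spread of the fit. Co-variation used two-sided permutation tests (100000 permutations, numpy 2.4.6, scipy 1.17.1), within time points for centred values.

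The members and the 16 gene lists were chosen with earlier results of these data known. Named were every member clone, for each the 2 clones most like it, and up to 3 clones with the lowest adjusted p per vessel or adhesion list and test. Symbols are those of the microarray's spot list. Alternatives were the fitted signal, median centring, normexp (offset 50), serum subtraction, the L number of the mouse names as a covariate, a filter on dim clones, the deposited serum columns, the unresolved microarray added, the conflicting one left out, microarrays as replicates with the mouse as a random block, and each mouse left out. An ordinary F test was also run.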

Additional observations from a re-analysis of the deposited data

Results flagged for a closer look

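Among 36 groups of 4 to 7 OA mice (9 clones at 4 time points), 1 value stood apart from its group by Dixon's criterion, which chance alone would meet in about 1 of 20 groups. It was Pecam1 (spot 8442) in mouse P7L2 at 1.5 hours, at 7.73, the lowest of 6 mice, where its gap to the next mouse was 0.885 of the range. The same mouse had 36 clones more than 2 log2 units below every other OA mouse.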

How the results depend on the processing

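None of the 9 member clones passed over the OA time course under any alternative but serum subtraction, which also took the calls over all clones from 153 to 4264 and subtracts the same few serum mice from every OA mouse of a time. It called 2 member clones over time, 3 in the contrast of 3 and 4 hours (2458 clones in all, from 230) and 13 of the 135 pairs, and turned Glycam1 in that contrast to 0.36. In this setting the 4 hours mice, which have no serum group, took the serum mean of 3 hours. The calls over time were 62 with the fitted signal, 71 with the L number as a covariate, 438 with microarrays as replicates and the mouse as a random block, 97 with the filter on dim clones, and 89 to 299 with 1 mouse left out (89 without P7L1 of 24 hours, 299 without P4L3 of 1.5 hours). For the contrast they were 85 with the fitted signal, 120 with the filter and 155 to 265 with a mouse left out.

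Ace and Cd34 (spot 9084) stayed lower than in serum mice, with an adjusted p under 0.05, in every alternative that tested them, from -1.07 to -0.69 and from -1.77 to -1.40, and with each mouse left out from -0.89 to -0.81 and from -1.58 to -1.42. The filter on dim clones removed 6 member clones, Cd34 among them, and left 1 member call and 1602 of 4700 in all, since fewer clones were tested. Pecam1 (spot 7881) turned to -0.43 with the serum side taken from the fitted reading of calculated diameter and to -1.40 with the deposited serum columns, which also turned Cd44 (spot 7602) to -1.32. Calls with a mouse left out ran from 4510 to 4800 in all and from 5 to 6 member clones.

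The test between times, with 8 calls, gave 59 with the fitted signal, 2522 with serum by the calculated diameter (1 member clone), 4904 with the deposited serum columns (4 member clones), 2 with normexp and 1 with the filter. It gave 2 to 329 with a mouse left out, the lowest without the 24 hours serum mouse, the highest without the second of 3 hours, and 4, 5, 5 and 15 without P6L1, P7L1, P11L1 and the first serum mouse of 18 hours. At single times, the filter left 747, 339, 1007, 668 and 586 calls at 1, 1.5, 3, 18 and 24 hours, the fitted signal gave 598 at 1.5 hours and 1451 at 18 hours, and the deposited serum columns 3089 at 1.5 and 3738 at 24 hours. With a mouse left out the calls ran from 1377 to 2423 at 1 hour, 1013 to 1237 at 1.5 hours, 1783 to 3194 at 3 hours, 1204 to 2354 at 18 hours and 1415 to 1852 at 24 hours, the lowest at 1, 3 and 18 hours each without a serum mouse of that time (the second of 1 hour, the first of 3 hours, the second of 18 hours). Where no reason is given, the cause was not tested. The pair of Cd34 clones was the 1 pair of 36 called under each setting with a test. No paired analysis was possible because the groups share no mice. The number of mice, above all of serum mice, limits every comparison.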
